A study of Sus scrofa with 12 samples.

Results

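Mesenchymal stem cells (MSCs) from fat can be driven in culture towards fat or bone cells. A list of 10 genes grouped under those 2 paths was followed here in pig MSCs and in the extracellular vesicles (EVs) that the cells shed. The genes listed as adipogenic were PPARG, CEBPB, CEBPD, LPL, FABP4, PLIN2 and LIPG, and those listed as osteogenic were RUNX2, ALPL and SPP1. They were looked up by symbol, or by the pig Ensembl identifier of that symbol, among the 29658 usable entries of the mRNA table, and for a symbol with more than 1 entry the most-read entry was kept. Of the 10 genes, 7 had an entry, and 4 of these (CEBPB, LPL, LIPG and RUNX2) had reads. PPARG, PLIN2 and SPP1 were listed at 0 reads in all 6 libraries, and CEBPD, FABP4 and ALPL matched no entry and were not analysed here.

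The 6 mRNA libraries were 3 from MSCs and 3 from the EVs of the same 3 female domestic pigs, aged 3 months by the labels, so that each pig gave 1 MSC and 1 EV library. The MSCs were released from abdominal fat with collagenase-H, grown in advanced MEM with platelet lysate and taken at passage 3, and the EVs were spun from their supernatants by ultracentrifugation. The labels name no differentiation medium or other treatment for either group. The comparison asked which transcripts take a larger or smaller share of the reads in EVs than in their parent cells. Reads counted on entries ran from 10429085 to 12276855 a library.

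In adipogenesis, CEBPB and CEBPD act early and switch on PPARG, the nuclear receptor that then drives the fat programme together with CEBPA. Its targets include FABP4, which carries fatty acids in the cytoplasm, LPL, which frees fatty acids from circulating triglycerides, and PLIN2, which coats lipid droplets. In osteogenesis, RUNX2 is the transcription factor that commits cells to the bone path, ALPL is the alkaline phosphatase that clears the way for mineral, and SPP1 (osteopontin) is a secreted matrix phosphoprotein.

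CEBPB had the highest level per length of the 4 read genes, though that level is uncertain, and did not separate MSCs from EVs. LPL varied widely among the MSC libraries. LIPG was lower in the EVs of every pig, as were 24.3% of all tested entries. RUNX2 was higher in the EVs of every pig, as were 22.6%. CPM below are counts relative to 1000000 counted reads, scaled by TMM factors unless called unscaled, and fold changes are EV over MSC from edgeR's quasi-likelihood test. An entry was called past the unadjusted rule where it changed over 2-fold with an unadjusted p under 0.05, the thresholds of the study, and past the adjusted rule where the p was adjusted by Benjamini-Hochberg over all 12392 entries tested. Of the 4 read genes, 0 were higher and 1, LIPG, was lower past the unadjusted rule, beside 5.55% of all entries higher and 3.57% lower. Past the adjusted rule there were 0 entries in either direction (0% of 12392) by edgeR, with 1978 entries at an unadjusted p under 0.05, while DESeq2 called 259 higher (2.09%) and 186 lower (1.5%), and edgeR with the pig as a block called 61 higher (0.492%) and 75 lower (0.605%). Only 3 samples a group were available, and in bulk libraries fewer cells or vesicles carrying a transcript and less of it in each cannot be told apart.

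**Figure D1:**
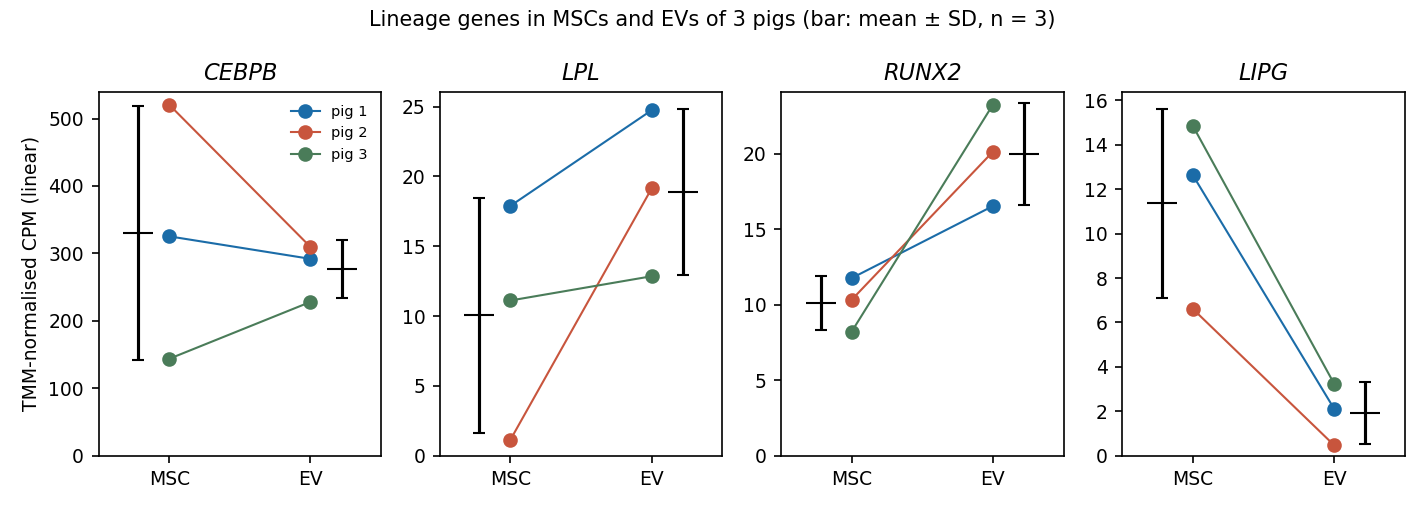
TMM-normalised CPM (linear axes from 0) of the 4 lineage genes with reads in the MSC and EV libraries, with a line joining the libraries of each pig and black bars for the mean ± SD of 3 libraries. LIPG lay between 0.469 and 3.24 CPM in EVs against 6.60 to 14.8 in MSCs, RUNX2 lay higher in the 3 EV libraries, and the groups overlapped for CEBPB and LPL.

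Among the adipogenic regulators, CEBPB had 4200, 5437 and 1694 reads in the MSCs of pigs 1, 2 and 3, and 3457, 3962 and 2254 reads in their EVs. This was 325, 520 and 144 CPM in MSCs and 292, 309 and 228 CPM in EVs. The EV values all lay inside the range of the MSC values. The means were 329.8 ± 188 CPM in MSCs and 276 ± 42.9 CPM in EVs (SD, n = 3), a log2 fold change of -0.25 (SE 0.44, edgeR adjusted p = 0.775). CEBPB was lower in the EVs of 2 pigs and higher in those of pig 3, and without MSC replicate 2 its log2 fold change was 0.24. Its coefficient of variation was 57.1% among MSC libraries and 15.5% among EV libraries, where the median over all tested entries was 31.8% and 23.1%.

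The CEBPB entry, on the plus strand of chromosome 17 from 57946261 to 58042680 (susScr3), spans 96420 bases but counts only 2082, and CEBPB is known as a gene without introns. Near each end of the span lies an Ensembl entry of 1571 bases. The first (57946112 to 57947682) counted 738, 1119 and 387 reads in the MSC libraries, and its EV libraries held 587, 678 and 364, and the second (58041491 to 58043061) held 738, 1154 and 393 in the MSC libraries and 588, 680 and 363 in the EV libraries. A further entry on the same strand, DBNDD2, spans 14514198 bases across this region and had a log2 fold change of -1.64 (SE 0.37, edgeR adjusted p = 0.212), past the unadjusted rule. The 1571-base copies held nearly equal reads in every library, and how reads were shared among the 4 entries was not tested, so the CEBPB level is uncertain. The copies' own log2 fold changes were -0.50 (SE 0.42, edgeR adjusted p = 0.542) and -0.53 (SE 0.43, edgeR adjusted p = 0.527).

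PPARG, the regulator that acts downstream of CEBPB, was listed at 0 reads under both of its entries on chromosome 13, from 75578160 to 75650246 and from 75578055 to 75650239 (plus strand, susScr3), whose counted lengths differ by 98 bases. A count of 0 allows up to 0.244 to 0.288 unscaled CPM in these libraries, for counting error only. PLIN2, on chromosome 1 from 227334093 to 227344720 (plus strand), shared its exact span with an Ensembl entry that was also at 0. Both SPP1 entries, on chromosome 8 from 140307938 to 140315415 (minus strand), had identical spans and 0 reads as well.

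All 3 genes at 0 therefore lay under another entry on the same strand, which was common for entries at 0 in this table. Of 1604 entries with a span identical to that of another entry, 97.6% had 0 reads in all libraries. The share was 62.9% of the 8758 entries with at least 90% of their span under another, and 28.1% of the 19031 without an overlapping entry. The zeros of PPARG, PLIN2 and SPP1 are thus values of the table, and whether the transcripts were absent or their reads left out in counting was not tested.

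**Figure D2:**
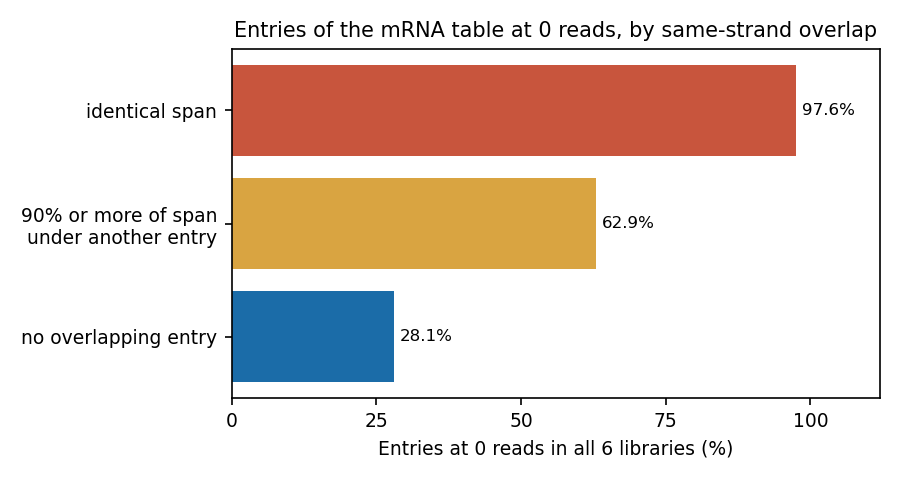
Share of entries of the mRNA table with 0 reads in all 6 libraries (percent, linear axis from 0), by how much of their span another entry on the same strand covers. Entries with an identical span were at 0 in 97.6% of cases, against 28.1% of those with no overlapping entry.

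The lipases LPL and LIPG followed different patterns. LPL had 231, 12 and 131 reads in the MSCs of pigs 1, 2 and 3, and 293, 245 and 127 reads in their EVs, or 17.9, 1.15 and 11.1 CPM against 24.7, 19.1 and 12.8 CPM. MSC replicate 2 stood far below the other 5 libraries, and its 12 reads correspond to 0.977 unscaled CPM (95% Wilson interval 0.559 to 1.71, counting error only). The EV mean was 18.9 ± 5.95 CPM and the MSC mean 10.0 ± 8.42 CPM (SD, n = 3), and the ranges overlapped.

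LPL was higher in the EVs of all 3 pigs, as were 22.6% of all tested entries. The EV to MSC ratio was 16.7 in pig 2 but 1.38 in pig 1 and 1.16 in pig 3. Its log2 fold change of 0.91 (SE 0.78, edgeR adjusted p = 0.548) became 0.38 without MSC replicate 2 and 1.62 without MSC replicate 1. The LPL entry covers only 235 bases on chromosome 14, from 4456506 to 4456740 (minus strand, susScr3), so these reads come from a fragment of the gene.

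LIPG encodes endothelial lipase, which cleaves phospholipids of high-density lipoprotein. It had 163, 69 and 175 reads in the MSCs of pigs 1, 2 and 3, and 25, 6 and 32 in their EVs. The corresponding levels were 12.6, 6.60 and 14.8 CPM in MSCs and 2.11, 0.469 and 3.24 CPM in EVs. Every EV library lay below every MSC library, as for 13.6% of all tested entries, and LIPG was lower in the EVs of all 3 pigs, as were 24.3% of entries.

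The mean LIPG level was 11.4 ± 4.26 CPM in MSCs and 1.94 ± 1.39 CPM in EVs (SD, n = 3), a 5.89-fold difference. The log2 fold change was -2.56 (SE 0.67, 95% interval -4.11 to -1.005), past the unadjusted rule with an unadjusted edgeR p of 0.00551 but not past the adjusted one (edgeR adjusted p = 0.219). Blocking by pig, which pairs each EV library with its parent cells, put LIPG past the adjusted rule at a log2 fold change of -2.76 (edgeR adjusted p = 0.032), and DESeq2 gave an adjusted p of 0.0074. On the log2(RPKM + 1) scale, which compresses low genes, the difference was -0.64 and not past the fold threshold.

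The reads of LIPG fell on an Ensembl entry on chromosome 1 from 108638412 to 108667299 (plus strand, susScr3, 4009 counted bases), while the entry named LIPG (108638434 to 108667182), shorter by 193 counted bases, had 0 reads. How reads over both entries were assigned was not tested. In EV replicate 2, the lowest library, the 6 reads correspond to 0.494 unscaled CPM (95% Wilson interval 0.226 to 1.08).

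Because endothelial cells are a known source of LIPG, the endothelial markers are given beside it. Of 13 markers, 10 had an entry and 9 had reads. Their summed level ran from 54.5 to 69.5 unscaled CPM in MSCs and from 35.3 to 52.4 in EVs. The most-read markers were EGFL7 (1556 reads over all libraries), ERG (919), PECAM1 (569) and FLT1 (514). VWF was listed at 0 on an entry that lies under another, KDR had 1 read and CLDN5 had 14. PECAM1 (CD31), an adhesion molecule of endothelium whose entry lies under another, was covered by 215, 111 and 114 reads in the MSC libraries and 78, 20 and 31 in the EV libraries, a log2 fold change of -1.71 (SE 0.54, edgeR adjusted p = 0.249). It was the 1 of 5 tested markers that was lower past the unadjusted rule, beside 3.57% of all entries, and 0 were higher. The list's median log2 fold change was -0.16, and 2 of the 5 had a positive one. These were FLT1 (0.30 to 0.36 over the scalings tried) and ESAM (0.16 to 0.26). On the log2(RPKM + 1) scale PECAM1 was at -0.51. The part of these markers in the LIPG result was not tested.

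RUNX2, the osteogenic regulator, had 152, 108 and 97 reads in the MSCs of pigs 1, 2 and 3, and 196, 258 and 230 in their EVs. The levels were 11.8, 10.3 and 8.23 CPM in MSCs and 16.5, 20.2 and 23.3 CPM in EVs. Every EV library lay above every MSC library, as for 14.3% of all tested entries, and the EV to MSC ratio was 1.41, 1.95 and 2.83 in pigs 1, 2 and 3.

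The mean RUNX2 level was 10.1 ± 1.78 CPM in MSCs and 20.0 ± 3.36 CPM in EVs (SD, n = 3). The log2 fold change of 0.98 (SE 0.29, 95% interval 0.32 to 1.65) was a 1.97-fold difference, just short of the 2-fold threshold, with an unadjusted edgeR p of 0.00953 and an adjusted p of 0.237. It passed the unadjusted rule without MSC replicate 1 and without EV replicate 1, at 1.10 in both cases. In those fits 948 and 737 of 12726 entries were higher past the rule. RUNX2 was the steadiest of the 4 genes among MSC libraries, with a coefficient of variation of 17.6% in MSCs and 16.8% in EVs. Its entry covers only 438 bases on chromosome 7, from 46060321 to 46060758 (minus strand, susScr3), so this too is a fragment of the gene.

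Levels of different genes can be compared only per length, as deposited RPKM, reads scaled to entry length and to the library's mapped reads. CEBPB had a mean of 41.5 ± 21.0 RPKM in MSCs and 36.5 ± 9.22 in EVs, above 97.7% of entries with a read. LPL had 12.1 ± 10.5 RPKM in MSCs and 22.3 ± 8.78 in EVs, and RUNX2 had 6.20 ± 1.45 in MSCs and 12.3 ± 1.25 in EVs. LIPG, at 0.773 ± 0.330 RPKM in MSCs and 0.126 ± 0.082 in EVs, lay above 40.6% of entries with a read (SD, n = 3 throughout). RPKM takes reads as countable over the whole length of an entry. The LIPG entry lies under another LIPG entry at 0 reads, the LPL and RUNX2 entries are fragments, and the CEBPB level is uncertain. The effect of this on the levels and their order was not tested.

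The order CEBPB, LPL, RUNX2, LIPG held in 5 of 6 libraries, and in MSC replicate 2 LPL (1.17 RPKM) lay below RUNX2 (5.67 RPKM). Neighbours in that order were not all separated. The ranges of CEBPB and LPL overlapped in MSCs and in EVs, and so did those of LPL and RUNX2, whereas RUNX2 and LIPG did not overlap in either group. For scale, SPARC, a secreted bone and stromal matrix protein, had 1098 RPKM in MSCs and 986 in EVs.

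**Figure D3:**
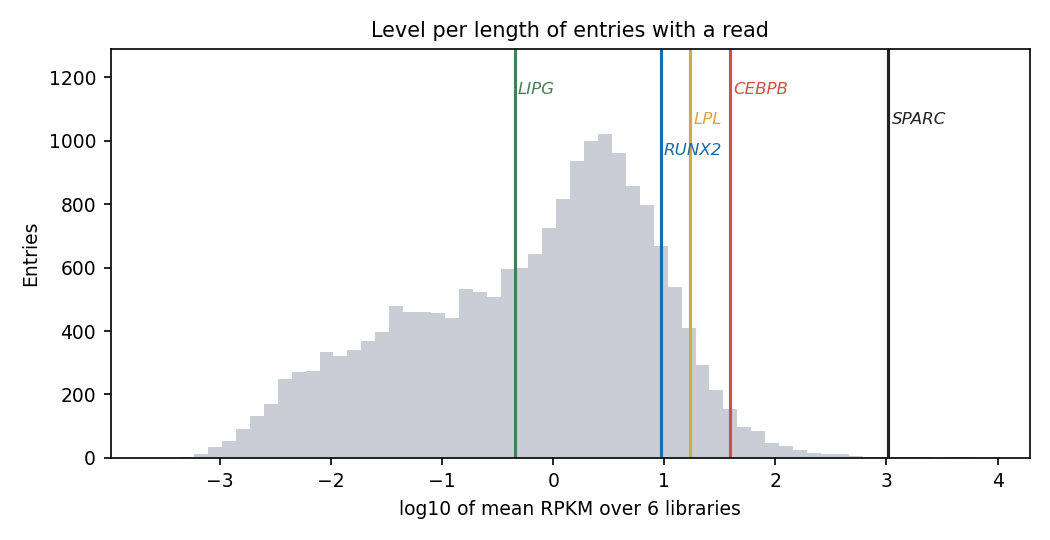
Histogram of mean RPKM over the 6 libraries for entries with a read (x axis log10, y axis number of entries), with lines at the 4 lineage genes and at SPARC. CEBPB, LPL and RUNX2 lie to the right of the peak and LIPG to its left.

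Genes whose profile over the 6 libraries was close to that of each lineage gene were found by the root mean square difference of centred log2 CPM, as a description. Near LIPG was ACAT2, an enzyme of acetoacetyl-CoA metabolism (difference 0.280), with a log2 fold change of -2.12. Near RUNX2 was BRAF, a kinase of the MAPK cascade (0.114), with a log2 fold change of 0.91. Those nearest CEBPB were BAIAP2L2 (0.142) and TESK2 (0.150), and those nearest LPL were BRIP1 (0.319) and SLC9B2 (0.378). The distances given for LPL and LIPG were larger than those given for RUNX2 and CEBPB.

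Of 52 further genes of adipogenesis and lipid storage, 48 had an entry, 40 had a read and 23 could be tested. Of those, 1 (4.35%) was higher and 1 (4.35%) lower in EVs past the unadjusted rule, beside 5.55% and 3.57% of all entries. The list's median log2 fold change was 0.21, against -0.02 over all entries. That median was 0.071 without MSC replicate 3, 0.097 without EV replicate 2, 0.14 without MSC replicate 1 and 0.40 without MSC replicate 2. The 8 listed genes at 0 reads all lay under another entry. Genes of mature adipocytes differed widely in reads over all 6 libraries. ADIPOQ (adiponectin) had 1 read, LEP (leptin) 13 and PLIN4 12, and CIDEC had 9 and PLIN1 0 on entries that lie under another. CFD (adipsin) had 14577 reads, PNPLA2 (adipose triglyceride lipase) 2720 and PCK1 1353, the last on an entry whose span is identical to another's. How the reads of PCK1 were assigned was not tested. These reads are not levels per length, since the LEP entry counts only 137 bases and the PCK1 entry 3972. Mean RPKM over the 6 libraries was 0.00477 for ADIPOQ, 0.366 for LEP, 1.32 for PCK1, 4.79 for PNPLA2 and 63.5 for CFD.

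INSR, the insulin receptor, counted 42, 26 and 14 reads in the MSC libraries, and its EV libraries held 84, 173 and 74. Every EV library in CPM lay above every MSC library, as for 14.3% of all tested entries. The log2 fold change of INSR was 2.01 (SE 0.49, edgeR adjusted p = 0.219). STAT5A, a transcription factor of cytokine signalling, was covered by 1633, 2288 and 1467 reads in the MSC libraries and 742, 844 and 814 in the EV libraries, a log2 fold change of -1.16 (SE 0.30, edgeR adjusted p = 0.219). STAT5A was no longer past the rule when its entries were summed (-0.80) or without MSC replicate 2 (-0.83). DESeq2 gave adjusted p-values of 0.00911 for INSR and 0.0357 for STAT5A. Blocked by pig, edgeR's adjusted p was 0.0669 for INSR and 0.110 for STAT5A. With the pig as a block, FABP3, a fatty acid carrier named here after its values were seen, was also lower past the unadjusted rule, where 5.17% of all entries were lower. CFD and LMF1, which matures lipases including LPL, had the highest levels of the list, at 71.0 and 19.6 RPKM in MSCs and 56.0 and 11.8 RPKM in EVs. Neither passed the rule, except LMF1 without MSC replicate 1 (-1.13).

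Of 37 further genes of osteogenesis and mineralisation, 25 had an entry, 17 had a read and 13 could be tested. Past the unadjusted rule, 3 (23.1%) were higher and 2 (15.4%) lower in EVs, beside 5.55% and 3.57% of all entries. This list, like the others, was chosen with earlier results of these data known, so the shares are a description. The list's median log2 fold change was 0.93, against -0.02 over all entries. That median was 0.32 without EV replicate 2, 0.34 without MSC replicate 2 and 0.60 without MSC replicate 1. Of the 8 genes at 0 reads, 6 lay under another entry, among them BGLAP (osteocalcin). IBSP (bone sialoprotein) had 42 reads over all libraries, and SP7, the factor that acts after RUNX2, had no entry.

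The genes higher in EVs were the growth factor BMP2, its receptor BMPR1B and OMD (osteomodulin), a small matrix proteoglycan named to complete the count. BMP2 counted 41, 78 and 59 reads in the MSC libraries, and its EV libraries held 389, 697 and 155, a log2 fold change of 2.72 (SE 0.53, edgeR adjusted p = 0.206). BMPR1B was covered by 224, 69 and 77 reads in the MSC libraries and 544, 609 and 259 in the EV libraries, a log2 fold change of 1.97 (SE 0.47, edgeR adjusted p = 0.219). For both, every EV library in CPM lay above every MSC library, as for 14.3% of all tested entries. The entries of BMPR1B, STAT5A and SPARC lie under another on the same strand, and how their reads were assigned was not tested. OMD had a log2 fold change of 1.40 (SE 0.53, edgeR adjusted p = 0.280) with overlapping groups, and was not past the rule without EV replicate 3 (0.95), EV replicate 1 (1.36), MSC replicate 1 (1.25) or MSC replicate 2 (1.14). On the log2(RPKM + 1) scale BMPR1B was at 0.996 and INSR at 0.83, neither past the fold threshold.

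The genes lower in EVs were BMP4 and SLC20A2, a phosphate transporter. BMP4 counted 232, 223 and 196 reads in the MSC libraries, and its EV libraries held 36, 48 and 25, a log2 fold change of -2.58 (SE 0.31, edgeR adjusted p = 0.131). SLC20A2 was covered by 603, 370 and 667 reads in the MSC libraries and 260, 184 and 140 in the EV libraries, a log2 fold change of -1.46 (SE 0.30, edgeR adjusted p = 0.206). The ligands BMP2 and BMP4 thus lay on opposite sides, each in all 3 pigs. Over all tested entries, 22.6% were higher and 24.3% lower in the EVs of all 3 pigs. When pigs were blocked, edgeR's adjusted p came to 0.0186 for BMP4, 0.0261 for BMP2 and 0.0359 for BMPR1B. It was 0.0602 for SLC20A2 and 0.0688 for OMD. The number of listed genes higher past the unadjusted rule was then 6, where 8.01% of all entries were higher. By DESeq2 the adjusted p was 6.84e-10 for BMP4, 0.000178 for BMP2, 0.00228 for SLC20A2, 0.00523 for BMPR1B and 0.121 for OMD. TWIST2, a transcription factor known to restrain RUNX2, had 56.1 RPKM in MSCs and 33.9 in EVs (log2 fold change -0.73, SE 0.29, edgeR adjusted p = 0.287).

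**Figure D4:**
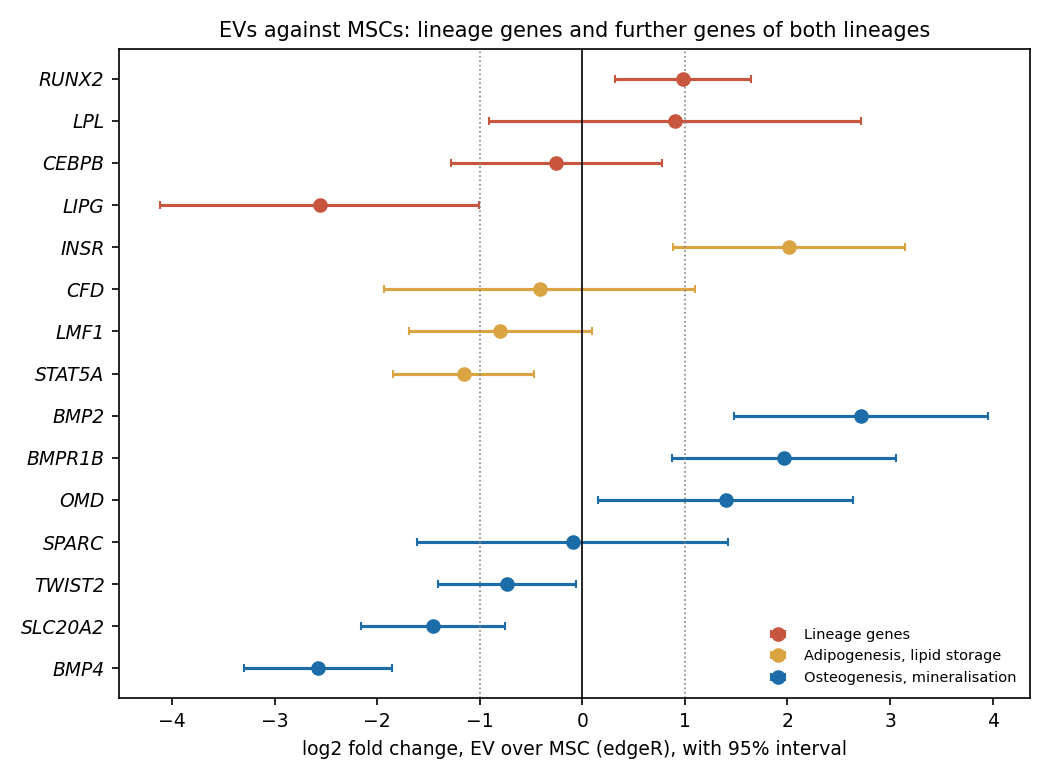
Log2 fold change, EV over MSC, with its 95% interval from edgeR, for the 4 lineage genes with reads and for further genes of both lineages named by rule, with dotted lines at 2-fold. RUNX2 (0.98) lies at the upper line and LIPG (-2.56) beside BMP4 (-2.58) at the low end.

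Markers of other cells were read in the same libraries. Of 6 stromal markers, 5 had reads, with a summed level of 1499 to 2099 unscaled CPM in MSCs and 1977 to 2075 in EVs, and 0 of 5 tested passed the unadjusted rule. THY1 (CD90) was listed at 0 under another entry. Of 17 myeloid markers, 16 had an entry and 4 were tested, and the summed level was 50.0 to 84.3 unscaled CPM in MSCs and 84.3 to 248.9 in EVs. The most-read of them were CD14 (3460 reads over all libraries, 5.63 RPKM in MSCs and 6.71 in EVs), F13A1 (2702) and GPNMB (1607). CD68 had 204 reads (119 in MSCs and 85 in EVs) and PTPRC (CD45) 33 (20 and 13), and CD163 and MRC1 were listed at 0. Of the 4 tested, 3 had a positive log2 fold change, and that of CD68 was negative (-0.47 to -0.44 over the scalings tried).

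Past the unadjusted rule, 2 of the 4 tested myeloid markers were higher in EVs, beside 5.55% of all entries. The list, which names F13A1 and GPNMB, was chosen with earlier results of these data known, so this count is no test of it. F13A1, a subunit of coagulation factor XIII that lies under another entry, had a log2 fold change of 2.42 (SE 0.68, edgeR adjusted p = 0.232), an edgeR adjusted p of 0.0376 when pigs were blocked, and a DESeq2 adjusted p of 0.0102. GPNMB (3.72, SE 1.49, edgeR adjusted p = 0.291) rested on EV replicate 2, with 1353 of its reads, and was 1.11 and not past the rule without it. GPNMB was also not past the rule without MSC replicate 1 (3.28) or MSC replicate 3 (3.34). Of 8 platelet markers, listed because the medium held platelet lysate, 6 had an entry, 2 had reads and 1 was tested, with 0 past the rule, and the summed level was 2.12 to 2.77 unscaled CPM in MSCs and 1.25 to 2.67 in EVs. Whether these markers have a part in the RUNX2 or LIPG differences was not tested.

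**Figure D5:**
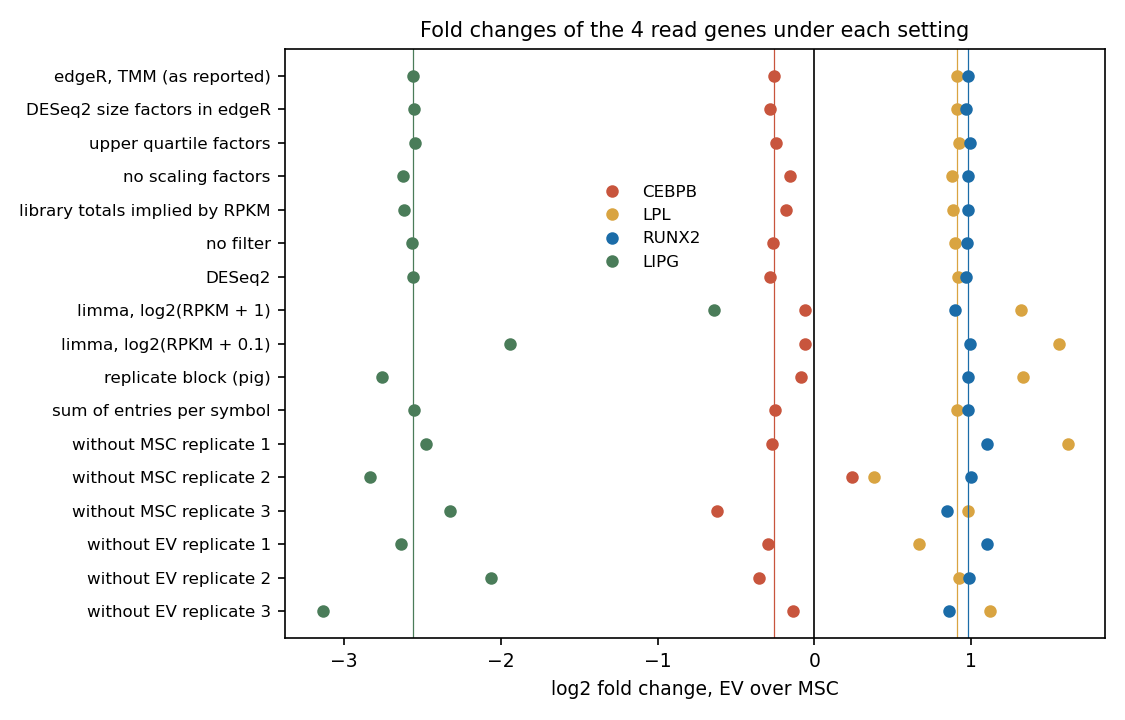
Log2 fold change, EV over MSC, of CEBPB, LPL, RUNX2 and LIPG under each processing setting (1 row a setting), with a thin line at the value reported. LIPG stayed below 0 and RUNX2 and LPL above 0 in every row, and CEBPB changed sign without MSC replicate 2.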

How the data were processed

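RNA of 3 MSC and 3 EV samples had been sequenced on an Illumina HiSeq. The labels name a stranded total RNA kit and the study's methods another TruSeq kit, and whether strand was used in counting is not given in the sources used here, so overlapping and antisense genes cannot be told apart. The authors aligned reads with TopHat to susScr3 (from the submitters' processing notes) and deposited raw counts per entry (featureCounts in the methods, HTSeq in the notes). The authors also deposited RPKM, which imply library totals of 41018590 to 44217940 reads, of which 25.4% to 28.2% were counted. The small RNA tables were not used here.

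Of 29661 entries, 3 shifted by a column were left out, and 11804 of 25322 Ensembl identifiers were matched to a symbol. Counts were filtered by filterByExpr, scaled by TMM and tested with edgeR 4.0.16 (R 4.3.3), EV against MSC without a block, with Benjamini-Hochberg adjustment over all 12392 entries. DESeq2 1.42.0 and limma 3.58.1 were alternatives. Only the edgeR fit with TMM, without the filter and without a block, was also run on simulated counts. The results compare shares of the counted reads, not amounts per cell or vesicle. The libraries were paired by pig through the numbers in their titles. Deviations from group means correlated at 0.251, 0.384 and 0.408 within pigs so paired, and at -0.364 to -0.0385 between pigs.

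The members and lists were chosen with earlier results of these data known. Named genes were all 10 members, of each further list at most 4 past the unadjusted rule by p and the 2 with the highest RPKM, and the 2 nearest profiles of each tested member. Some of these nearest profiles are not reported here.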

Additional observations from a re-analysis of the deposited data

How the results depend on the processing

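Of 432 gene fold changes under alternatives, 395 kept their direction and side of the unadjusted rule, 19 were weaker, 6 stronger and 12 reversed, and the cause was not tested where fewer samples or entries do not show it. LIPG, LPL and RUNX2 kept their direction under all 16 alternatives. With the replicate block of pigs, members lower past the adjusted rule numbered 1 against 0, as with DESeq2 (1). The block also moved counts past the unadjusted rule to 2 adipogenesis genes lower, 6 osteogenesis genes higher and 2 chondrogenesis genes higher, and over all entries past the adjusted rule to 61 higher and 75 lower. Past the adjusted rule it called 2 osteogenesis genes and 1 myeloid marker higher and 1 osteogenesis gene lower, and DESeq2 called 1 adipogenesis gene, 2 osteogenesis genes and 1 myeloid marker higher and 1 adipogenesis and 2 osteogenesis genes lower, against 0 in each case. Without the filter, 3 of 40 adipogenesis genes were higher and 2 lower, and 1 of 11 chondrogenesis genes was higher. Over all 18511 entries of that fit, 886 were higher and 583 lower past the unadjusted rule. On log2(RPKM + 1), members lower, adipogenesis genes higher and endothelial markers lower each numbered 0, and myeloid markers higher numbered 1, as on log2(RPKM + 0.1). Over all entries, log2(RPKM + 1) left 233 higher and 194 lower past the unadjusted rule. Summing entries left 0 adipogenesis genes lower.

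Leaving out 1 library gave 0 to 1 members higher, 1 to 4 adipogenesis genes higher and 1 to 2 lower, 0 to 1 chondrogenesis genes higher and 0 to 2 lower, 1 to 2 myeloid markers higher and 0 to 1 endothelial markers higher. Over all entries, those higher ran from 511 of 12740 without EV replicate 2 to 948 of 12726 without MSC replicate 1. Those lower ran from 270 of 12740 without EV replicate 2 to 607 of 12785 without EV replicate 3. With all libraries, 688 were higher and 442 lower of 12392. Among the same fits, signs reversed without MSC replicate 2 for CEBPB (0.24, range -0.62 to 0.24), CFD (0.59, range -0.77 to 0.59) and EGFL7 (0.024, range -1.05 to 0.024). They reversed for COL11A1 without MSC replicate 3 (0.64), EV replicate 1 (0.28) and EV replicate 2 (0.44), within -2.35 to 0.64, and for SPARC without the same libraries (0.24, 0.13 and 0.31), within -1.04 to 0.31. They also reversed for COMP without EV replicate 2 (-0.28, range -0.28 to 4.07) and for ERG without MSC replicate 1 (0.021) or EV replicate 2 (0.21), within -0.90 to 0.21. Depth limits LIPG and LPL most, with as few as 6 and 12 reads in a library.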

Other observations

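The third classical path of MSCs, chondrogenesis, was also read. Of 18 listed cartilage genes, 16 had an entry, 11 had a read and 5 could be tested, with a median log2 fold change of -0.13. That median was -0.51 without EV replicate 3 and above 0 without each of the other libraries, from 0.17 without EV replicate 2 to 1.05 without EV replicate 1. Past the unadjusted rule 0 were higher and 1 was lower in EVs, and with the pig as a block 2 were higher, where 8.01% of all entries were higher. Those 2 were SOX9, the regulator of cartilage fate, named after its values were seen, and COMP, a cartilage matrix protein. COMP had 175, 2969 and 468 reads in the MSCs of pigs 1, 2 and 3, and 1571, 14715 and 562 in their EVs. Within each group, the value of pig 2 stood far above those of the other pigs. COMP had a log2 fold change of 1.99 (SE 1.35, edgeR adjusted p = 0.457). It was higher in the EVs of all 3 pigs, as were 22.6% of all tested entries. CHAD (chondroadherin) was the gene that was lower, at a log2 fold change of -1.56 (SE 0.59, edgeR adjusted p = 0.277), and it was not past the rule without MSC replicate 2 (-1.32), MSC replicate 3 (-1.34), EV replicate 1 (-1.66) or EV replicate 2 (-1.19). COL11A1, a fibrillar collagen of cartilage, counted 1368, 1395 and 4457 reads in the MSC libraries, and its EV libraries held 751, 224 and 4771, with overlapping groups.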
